A study of Homo sapiens with 10 samples.

Results

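The 32 genes described here are established targets of the sterol regulatory element-binding proteins (SREBPs), or parts of their sensing machinery, and together build sterols and fatty acids. They were taken by name and are 32 of the 36687 gene symbols measured. All 32 were among the 15727 genes that passed a filter on low counts. Their RNA was followed in MDA-MB-231 cells, an established triple-negative breast cancer line of the basal B subtype, under dasatinib, an inhibitor of SRC and ABL family kinases. Cells treated for 6, 12, 24 and 48 h were compared with cells at 0 h, which were titled sham. Each of the 5 groups held 2 replicates, 10 libraries in all. The dose was 100 nM, from the methods and not from the labels. The treatment field of the 0 h samples also names the drug, although they were used as untreated controls. Untreated cells kept in culture for 6 to 48 h were not analysed here, so drug and time in culture cannot be told apart. All libraries come from 1 cell line, and in such bulk RNA a smaller share of cells carrying a transcript and less transcript per cell cannot be told apart.

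SREBPs are transcription factors held in the endoplasmic reticulum membrane by SCAP, a sterol-sensing escort, and INSIG proteins, which retain SCAP there while sterols are plentiful. When sterols are scarce, SCAP carries the SREBP to the Golgi, where proteases free its transcription factor domain to enter the nucleus and switch on genes of cholesterol and fatty acid synthesis. SREBP-2, encoded by *SREBF2*, favours sterol genes, and SREBP-1c favours fatty acid genes. SREBPs bind sterol regulatory elements and usually act beside NF-Y, which binds the letters CCAAT, and SP1, which binds GC-rich boxes. In tumour cells the same genes supply membrane lipid for growth.

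By role, 6 of the genes make farnesyl diphosphate from acetyl units through mevalonate (*HMGCS1*, *MVK*, *PMVK*, *MVD*, *IDI1* and *FDPS*). A further 11 make squalene and close and trim the sterol ring (*FDFT1*, *SQLE*, *LSS*, *CYP51A1*, *TM7SF2*, *MSMO1*, *NSDHL*, *HSD17B7*, *EBP*, *SC5D* and *DHCR7*). Sensing and sterol transfer is covered by 4 genes (*STARD4*, *INSIG1*, *SREBF2* and *SCAP*). The other 11 supply, build, lengthen, desaturate or activate fatty acids (*ACLY*, *ACACA*, *FASN*, *SCD*, *FADS1*, *FADS2*, *ELOVL5*, *ELOVL6*, *ACSS2*, *ACSL3* and *ME1*).

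The promoters were read first, because they hold what these genes share outside the RNA values. RefSeq promoter windows of 250 bases before to 50 bases after an annotated start (GRCh38.p14) were matched for 29 of the 32 genes. *FASN*, *SQLE* and *FDFT1* were not matched. On either strand, CCAAT was found for 23 of the 29 genes (79.3%), against 10846 of 27305 genes with a listed promoter (39.7%) and 42.4% of the genes that passed the filter. A GC box, GGGCGG, was found for 27 of 29 (93.1%), against 48.3% of all genes and 73.3% of those that passed the filter. The E-box CACGTG was found for 5 of 29 (17.2%), against 8.77% of all genes and 11.8% of those that passed the filter. The classical sterol regulatory element TCACNCCAC was found for 1 of 29, *SREBF2* (3.45%), against 1.39% of all genes and 1.46% of those that passed the filter. No motif contains another, and a gene with several listed starts was counted once if any window held the motif. A match describes letters and not a bound site. Only exact letters within these windows were searched, so an element with other letters or outside the window would be missed.

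Stretches upstream of 4 genes are printed here because they set the single exact match to TCACNCCAC beside CCAAT-rich promoters. These promoters belong to genes whose RNA changed (*MSMO1* and *SCD*) and to one whose RNA did not pass the test at any time (*MVD*). Each is written 5′ to 3′ on the gene's own strand and ends before the first exon of that gene in GENCODE, and capitals mark TCACNCCAC or CCAAT on either strand (CCAAT reads ATTGG on the other). *SREBF2* lies on the plus strand at chr22:41832855-41833104, *MSMO1* on the plus strand at chr4:165327419-165327666, *SCD* on the plus strand at chr10:100346983-100347232 and *MVD* on the minus strand at chr16:88663162-88663341.
SREBF2: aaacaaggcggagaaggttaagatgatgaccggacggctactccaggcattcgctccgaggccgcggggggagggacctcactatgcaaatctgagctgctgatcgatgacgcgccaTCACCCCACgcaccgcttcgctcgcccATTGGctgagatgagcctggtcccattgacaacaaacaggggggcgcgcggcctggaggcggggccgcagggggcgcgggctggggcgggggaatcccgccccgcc
MSMO1: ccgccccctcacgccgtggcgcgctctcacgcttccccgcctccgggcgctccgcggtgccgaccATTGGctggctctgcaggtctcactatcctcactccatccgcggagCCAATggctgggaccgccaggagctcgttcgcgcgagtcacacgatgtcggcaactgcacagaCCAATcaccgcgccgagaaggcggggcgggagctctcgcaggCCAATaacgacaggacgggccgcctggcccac
SCD: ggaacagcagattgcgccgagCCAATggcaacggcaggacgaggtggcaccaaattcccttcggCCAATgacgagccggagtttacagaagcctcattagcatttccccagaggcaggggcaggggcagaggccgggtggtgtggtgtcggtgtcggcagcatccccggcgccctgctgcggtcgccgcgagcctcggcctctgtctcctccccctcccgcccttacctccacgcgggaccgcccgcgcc
MVD: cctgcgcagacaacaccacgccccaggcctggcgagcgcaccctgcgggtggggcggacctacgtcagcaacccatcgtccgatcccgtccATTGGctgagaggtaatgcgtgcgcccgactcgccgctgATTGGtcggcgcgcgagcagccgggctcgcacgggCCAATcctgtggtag

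*MSMO1* held 4 CCAAT sites, *SCD* 2 and *MVD* 3 in these stretches, and *SREBF2* held 1 beside its sterol regulatory element, whose first base on the plus strand lay at -133 from the start. The element and the nearest CCAAT of *SREBF2* lay in the same short upstream stretch, the second at -106. Of the genes with a window, CCAAT was found for 10 of the 12 that rose at 48 h against 0 h, for the 1 that fell and for 12 of the 16 not called. For 48 h against 6 h it was found for 14 of 15 called higher, for both called lower and for 7 of 12 not called. These counts are a description, with no test.

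**Figure D1:**
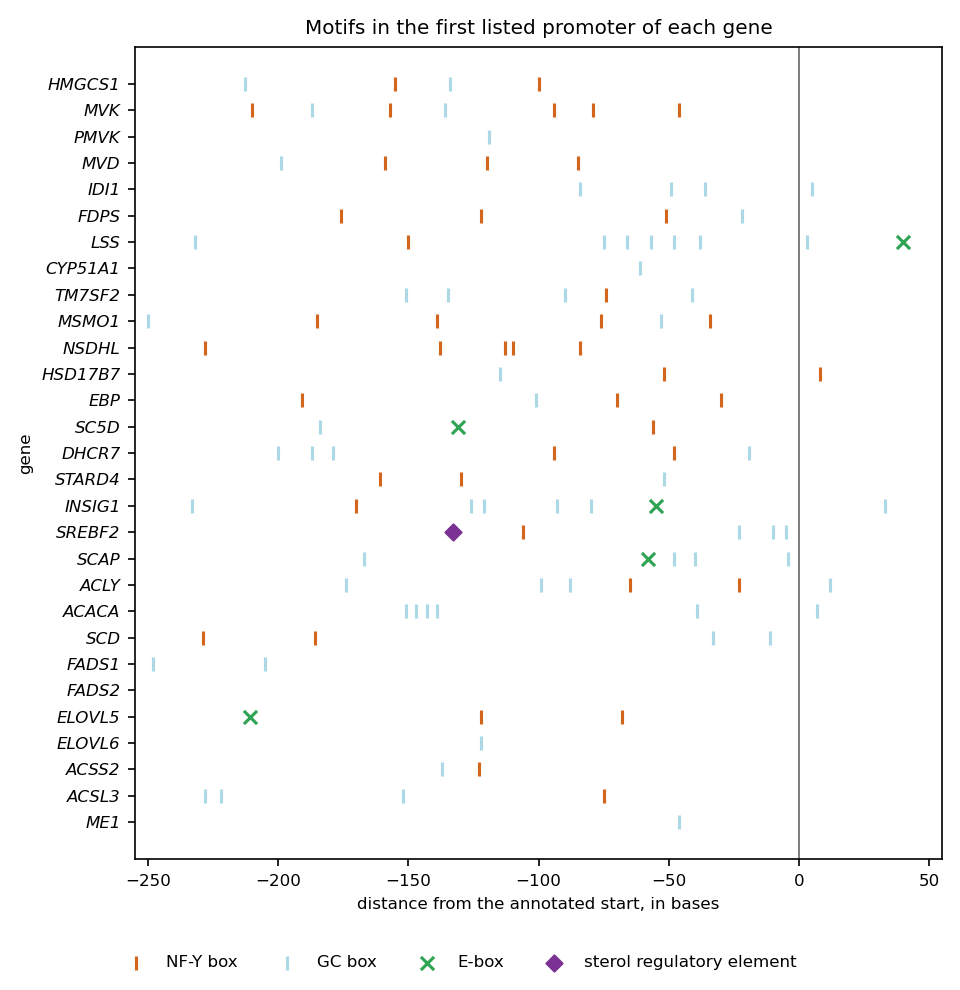
Motif positions in the first listed RefSeq promoter of the 29 matched genes, by role from top to bottom. The x axis is the distance from the annotated start in bases (line at 0), and marks show the NF-Y box (CCAAT), the GC box, the E-box and the sterol regulatory element on either strand. The single exact match to the sterol regulatory element TCACNCCAC is that of *SREBF2* at -133, and *MVK* and *NSDHL* carry the most NF-Y boxes.

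RNA levels are given as CPM, counts scaled to a common library size by TMM, and fold changes as log2 differences with their standard error (SE). A gene is called changed where edgeR's quasi-likelihood test gave a Benjamini-Hochberg adjusted p under 0.05 over all genes tested in that comparison. Libraries held 40942913 to 49133774 counts, and the lowest count of any of the 32 genes in any library was 131 (*CYP51A1* at 12 h). Markers matched the line: all 6 markers listed for mesenchymal basal B cells were above 1 TPM, against 3 of 6 luminal, 1 of 4 haematopoietic, 1 of 3 adipocyte and 0 of 3 hepatocyte markers, with summed TPM of 1911 to 3314 for the first list and at most 36.8 for the luminal list.

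Library 12 h replicate 1 stood apart. Its best correlation of log2 CPM with any other library was 0.955, while the other 9 reached 0.983 to 0.987. Between the 12 h replicates the 32 genes differed by log2 -1.23 (*TM7SF2*) to 0.79 (*ACACA*), with an SD of 0.52 and 10 genes over 0.5, while the SD was 0.13 to 0.19 in the other groups. The 16 genes with the longer exonic sequence (5245 to 14436 bases) had a median difference of 0.27, replicate 1 minus replicate 2, and were higher in replicate 1 in 13 cases. The 16 shorter genes (1002 to 5208 bases) had a median of -0.38 and were higher in replicate 1 in 2 cases. This spread enters the error of every comparison in the shared fit, so the counts of the set and of its role groups are given with all 10 libraries and without that library (16555 genes tested), an alternative that was planned.

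**Figure D2:**
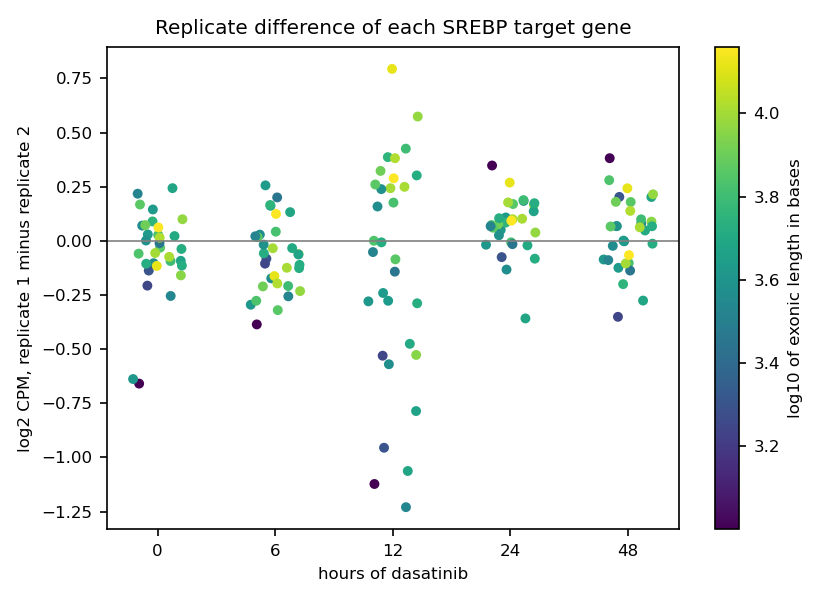
Difference in log2 CPM between replicate 1 and replicate 2 for each of the 32 genes (points) at each time, coloured by log10 of exonic length in bases. The 12 h points spread from -1.23 to 0.79, with longer genes mostly above 0 and shorter genes mostly below.

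At 6 h a pair of sterol genes fell, *HMGCS1* and *MSMO1*. With all 10 libraries 0 of the 32 genes rose and 2 fell, against 1.24% and 1.49% of all genes tested. DESeq2 also called *HMGCS1* and *MSMO1* lower. Without 12 h replicate 1, 0 rose and 10 fell, against 9.89% and 9.47% of all genes. The further 8 were *FDFT1*, *SQLE*, *LSS*, *NSDHL*, *STARD4*, *ACACA*, *SCD* and *ACSL3*, and 5 of the 10 belong to squalene and ring synthesis. The median log2 fold change of the 32 genes was -0.12, beside 0.01 over all genes, and 16 of 32 had both 6 h libraries below both 0 h libraries, against 28.8% of all genes.

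*HMGCS1*, the cytosolic synthase that commits acetyl units to mevalonate, had 79.4 and 77.9 CPM at 0 h, 57.1 and 55.5 CPM at 6 h, 79.2 and 70.0 CPM at 12 h, 110.4 and 111 CPM at 24 h and 131 and 141 CPM at 48 h. Both 6 h libraries were the lowest of all and both 48 h libraries the highest, with no overlap between the groups at 0, 6, 24 and 48 h. The log2 fold change was -0.48 (SE 0.11, edgeR adjusted p = 0.0424) at 6 h, 0.49 (SE 0.11, adjusted p = 0.00891) at 24 h and 0.79 (SE 0.11, adjusted p = 0.000343) at 48 h against 0 h. *MSMO1*, a methyl sterol oxidase of the ring-trimming steps, had 153 and 154 CPM at 0 h, 116 and 101 CPM at 6 h, 122 and 134 CPM at 12 h, 206 and 208 CPM at 24 h and 264 and 290.4 CPM at 48 h. It was again lowest at 6 h and highest at 48 h in both libraries. Its log2 fold change was -0.50 (SE 0.11, edgeR adjusted p = 0.0463) at 6 h and 0.86 (SE 0.11, adjusted p = 0.000314) at 48 h. The 6 h calls of *HMGCS1* and *MSMO1* were lost in 13 and 12 of 19 alternatives, among them each 0, 6, 24 or 48 h library left out in turn, and their adjusted p ranged up to 0.357 and 0.449. Without 12 h replicate 1 their adjusted p was 3.83e-05 and 2.44e-05. In GENCODE 37.7% of the exonic bases of *HMGCS1* also lie in an antisense RNA, and the strand setting of the counting was not stated.

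At 12 h no gene of the set was called with all libraries (0 rose and 0 fell by edgeR, against 3.93% and 3.22% of all genes). DESeq2 called 1 higher, against 7.48% of all genes, and 0 lower. Without 12 h replicate 1, which leaves a single 12 h library, *FADS1* rose and *STARD4*, *ACACA*, *FASN* and *SCD* fell, against 8.26% and 8.61% of all genes. Without 12 h replicate 2 instead, 5 rose and 12 fell, against 20.1% and 24.8% of all genes. *SCD* showed the gap between the replicates, with 755 and 612 CPM at 12 h beside 799 and 819.6 CPM at 0 h. *FASN*, the fatty acid synthase, had 1021 and 686 CPM at 12 h, the first above and the second below its 876 and 818 CPM at 0 h.

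With all libraries *HMGCS1* and *MSMO1* were higher at 24 h than at 0 h. In all, 6 of 32 genes rose and 0 fell, against 9.73% and 10.2% of all genes. The genes called higher by edgeR were also called higher by DESeq2. Leaving out 12 h replicate 1, 11 rose and 3 fell, against 19.5% and 20.8%. The 6 were *HMGCS1*, *TM7SF2*, *MSMO1*, *INSIG1*, *ACSS2* and *ME1*. Of these only *ACSS2* kept its call in all 19 alternatives. *INSIG1* lost it in 9, *HMGCS1* and *MSMO1* in 4 each, *ME1* in 3 and *TM7SF2* in 2. Leaving out any single 0 h or 24 h library left 1 or 2 genes called higher, against 3.86% to 4.34% of all genes, and the calls of *HMGCS1* and *MSMO1* were lost each time (edgeR adjusted p 0.0641 to 0.0837 and 0.114 to 0.15). The median log2 fold change of the set was 0.12, beside 0.02 over all genes.

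*TM7SF2*, a sterol C14 reductase, had 9.17 and 10.9 CPM at 0 h, 8.71 and 10.4 CPM at 6 h, 5.42 and 12.8 CPM at 12 h, 30.4 and 26.7 CPM at 24 h and 24.9 and 23.6 CPM at 48 h. It was flat to 6 h, split at 12 h and higher in all 24 h and 48 h libraries than in any other. Its log2 fold change was 1.51 (SE 0.31, edgeR adjusted p = 0.0076) at 24 h and 1.27 (SE 0.31, adjusted p = 0.0109) at 48 h. The 24 h call was lost without 0 h replicate 1 or 24 h replicate 1. The 48 h call was lost when either 0 h or either 48 h library was left out (adjusted p 0.0505 to 0.0961).

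At 48 h genes of desaturation, acyl-CoA supply, sterol synthesis and sterol sensing were higher than at 0 h. With all libraries 13 of 32 genes rose and 1 fell, against 16.0% and 16.3% of all genes. With 12 h replicate 1 left out, 20 rose and 2 fell, against 24.5% and 26.0%. Leaving out 0 h replicate 2 left 8 called higher, against 8.65% of all genes. The median log2 fold change of the 32 was 0.27, beside 0.01 over all genes, and 22 of 32 had both 48 h libraries above both 0 h libraries, against 37.7% of all genes.

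**Figure D3:**
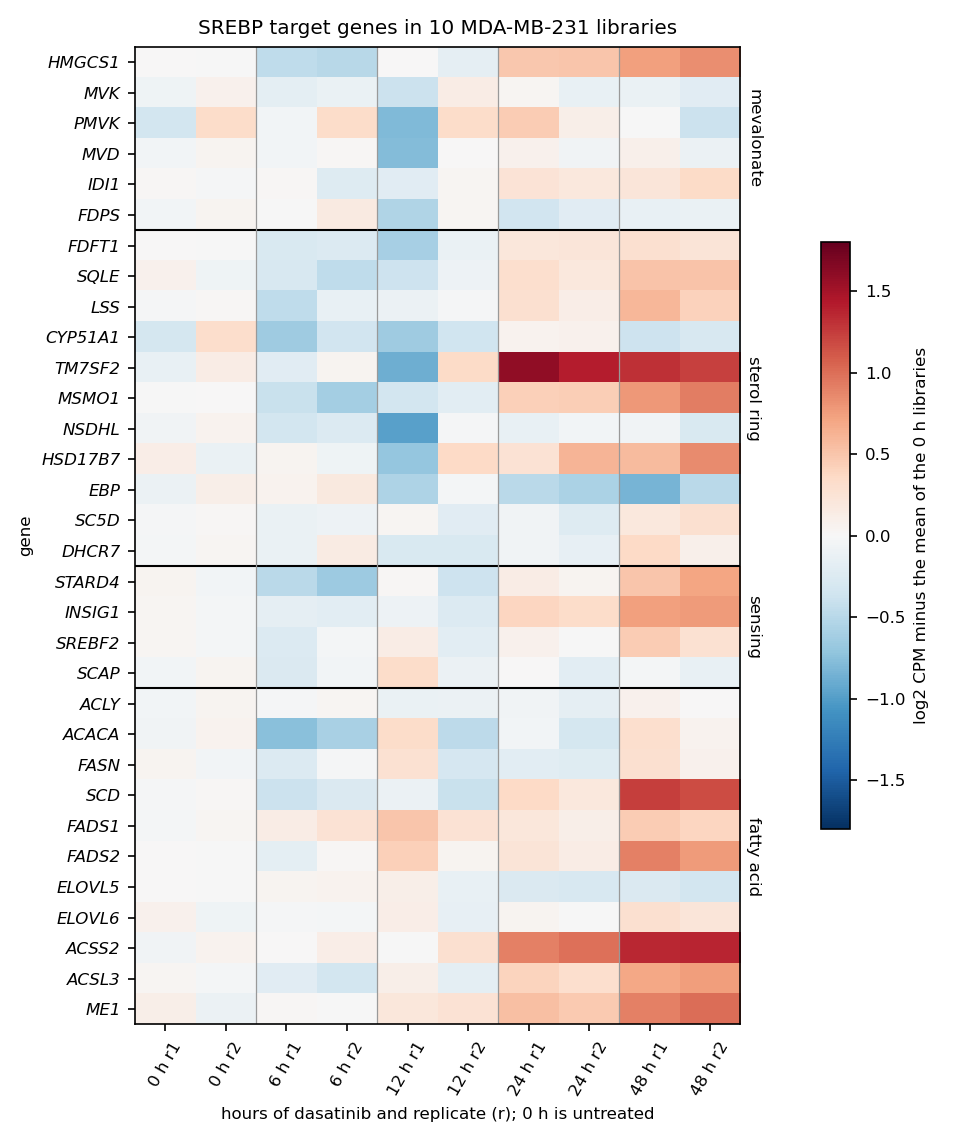
Log2 CPM of the 32 genes (rows, by role) in the 10 libraries (columns, hours and replicate), minus the mean of the 0 h libraries; red is higher and blue lower. The 6 h columns are mostly pale or blue, and 12 h replicate 1 differs from its partner. The 48 h columns are red for the 13 genes that rose and blue for *EBP*. Some genes not called with all libraries are coloured too, among them *HSD17B7* in red and *CYP51A1* and *ELOVL5* in blue.

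The fatty acid group held 6 of the genes that rose at 48 h, and 0 of its 11 genes fell by edgeR, with 1 (*ELOVL5*) lower at an unadjusted p under 0.05. Without 12 h replicate 1, 7 rose and 1 fell. The group's median log2 fold change was 0.42. *SCD*, the stearoyl-CoA desaturase that makes oleate, had 799 and 819.6 CPM at 0 h, 621 and 678 CPM at 6 h, 755 and 612 CPM at 12 h, 1039 and 921 CPM at 24 h and 1910.1 and 1823 CPM at 48 h. Both 48 h libraries lay far above all others. Its log2 fold change at 48 h was 1.21 (SE 0.14, edgeR adjusted p = 0.000132), a 2.31-fold difference. *ACSS2*, which turns acetate into acetyl-CoA, had 26.4 and 28.6 CPM at 0 h, 27.6 and 29.8 CPM at 6 h, 27.4 and 33.5 CPM at 12 h, 51.6 and 54.6 CPM at 24 h and 70.4 and 71.1 CPM at 48 h. It showed no dip at 6 h and had the largest log2 fold change of the 32 at 48 h, 1.36 (SE 0.13, edgeR adjusted p = 5.18e-05). *ME1*, the cytosolic malic enzyme that supplies NADPH, followed the same course with 39.9 and 34.3 CPM at 0 h, 37.5 and 37.0 CPM at 6 h, 42.8 and 44.3 CPM at 12 h, 54.0 and 51.5 CPM at 24 h and 69.7 and 74.1 CPM at 48 h. Its libraries at 24 h and 48 h did not overlap those of 0 h, and its log2 fold change at 48 h was 0.96 (SE 0.12, edgeR adjusted p = 0.000207).

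*ACSL3*, an acyl-CoA synthetase of lipid droplets and the endoplasmic reticulum, had 138 and 132 CPM at 0 h, 117 and 107 CPM at 6 h, 146 and 119 CPM at 12 h, 178 and 166 CPM at 24 h and 218 and 228 CPM at 48 h. *FADS2*, the delta-6 desaturase of polyunsaturated fatty acids, had 327 and 324 CPM at 0 h, 289 and 331 CPM at 6 h, 437 and 335 CPM at 12 h, 384 and 358 CPM at 24 h and 608 and 552 CPM at 48 h. Both were highest in the 48 h libraries, and the 6 h libraries overlapped those of 0 h for *FADS2* but not for *ACSL3*. Their log2 fold changes at 48 h were 0.72 (SE 0.12, edgeR adjusted p = 0.00126) for *ACSL3* and 0.83 (SE 0.14, adjusted p = 0.00156) for *FADS2*. *FADS1*, the delta-5 desaturase encoded head to head with *FADS2*, rose less, by 0.42 on the log2 scale (SE 0.12, edgeR adjusted p = 0.0199), and that call was lost without either 0 h or either 48 h library (adjusted p 0.0764 to 0.139). The exons of *FADS1* and *FADS2* share 490 bases on opposite strands.

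The core of fatty acid synthesis did not pass the test at 48 h with all libraries or without 12 h replicate 1. *ACLY*, which makes cytosolic acetyl-CoA from citrate, had a log2 fold change of 0.04 (SE 0.11), *FASN* of 0.19 (SE 0.18) and *ACACA*, the acetyl-CoA carboxylase, of 0.19 (SE 0.22). *FASN* had 1039 and 895 CPM at 48 h and 876 and 818 CPM at 0 h. The elongases *ELOVL6* (0.25, SE 0.12) and *ELOVL5* (-0.29, SE 0.11) were not called with all libraries and passed in those directions without 12 h replicate 1 (edgeR adjusted p = 0.00917 and 0.000996).

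In the sensing group 2 of 4 genes rose at 48 h, and 3 without 12 h replicate 1. *INSIG1*, which retains SCAP in the endoplasmic reticulum, had 108 and 103 CPM at 0 h, 94.4 and 92.5 CPM at 6 h, 99.7 and 89.3 CPM at 12 h, 139 and 133 CPM at 24 h and 177 and 179 CPM at 48 h. *STARD4*, a carrier that moves cholesterol between membranes, had 111 and 104 CPM at 0 h, 76.5 and 68.2 CPM at 6 h, 109 and 83.0 CPM at 12 h, 118 and 111 CPM at 24 h and 152 and 175 CPM at 48 h. Both were below 0 h in both 6 h libraries and above it in both 48 h libraries. The log2 fold changes at 48 h were 0.75 (SE 0.10, edgeR adjusted p = 0.000385) for *INSIG1* and 0.61 (SE 0.14, adjusted p = 0.00867) for *STARD4*, and the second was lost without 0 h replicate 2 (0.0762) or 48 h replicate 2 (0.0834). *SREBF2* had 414 and 365 CPM at 48 h and 309.5 and 294 CPM at 0 h, a log2 difference of 0.37 (SE 0.14, edgeR adjusted p = 0.0657, and 0.000352 without 12 h replicate 1). *SCAP* had 141 and 132 CPM at 48 h and 139.7 and 149 CPM at 0 h, so its groups overlapped.

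Squalene and ring synthesis held 4 genes that rose and 1 that fell at 48 h, out of 11, and 8 and 1 without 12 h replicate 1. Besides *MSMO1* and *TM7SF2* those that rose with all libraries were *SQLE*, the squalene epoxidase, and *LSS*, which closes the first ring system. *SQLE* had 32.4 and 29.3 CPM at 0 h, 25.2 and 22.5 CPM at 6 h, 23.8 and 28.8 CPM at 12 h, 38.0 and 35.2 CPM at 24 h and 43.8 and 43.8 CPM at 48 h. Its groups at 0, 6, 24 and 48 h did not overlap. *SQLE* and *LSS* rose by 0.51 each on the log2 scale (SE 0.14 and 0.13, edgeR adjusted p = 0.0179 and 0.0155). The *SQLE* call was lost without either 0 h or either 48 h library (adjusted p 0.0643 to 0.152), and the *LSS* call without either 0 h library or 48 h replicate 1 (0.0874 to 0.137). *EBP*, the sterol isomerase, was the single gene that fell and is given in full because of its values, seen beforehand. It had 14.6 and 16.8 CPM at 0 h, 16.4 and 17.6 CPM at 6 h, 10.6 and 15.3 CPM at 12 h, 11.2 and 10.5 CPM at 24 h and 8.74 and 11.2 CPM at 48 h. Its log2 fold change at 48 h was -0.66 (SE 0.20, edgeR adjusted p = 0.0308), and the call was lost in 9 of 19 alternatives, each 0, 6, 24 or 48 h library left out among them (adjusted p up to 0.222). In GENCODE 36.4% of its exonic bases lie in another gene on the same strand.

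**Figure D4:**
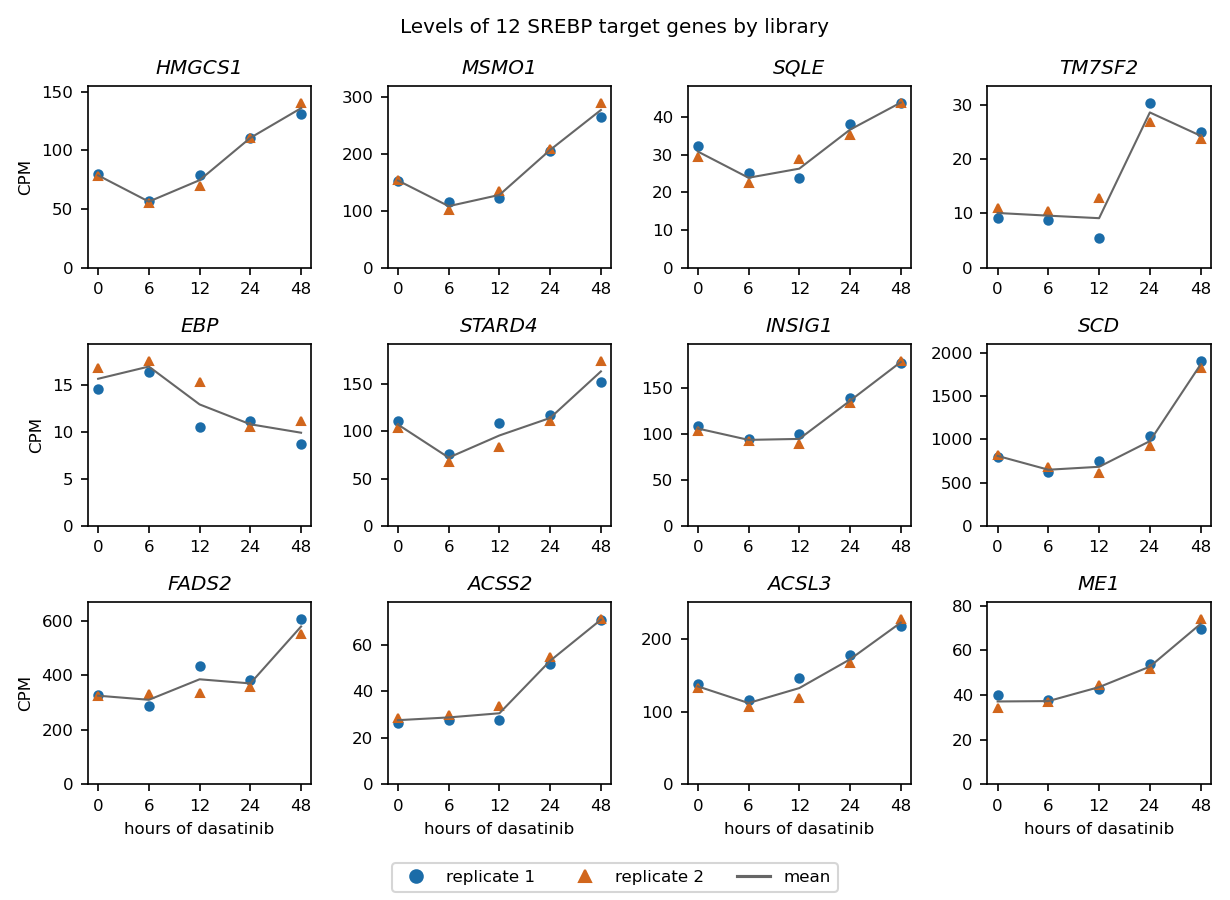
CPM by library for 12 of the genes over hours of dasatinib (points, replicates 1 and 2; line, mean of both; each y axis starts at 0 and the times are evenly spaced). *HMGCS1*, *MSMO1*, *SQLE*, *STARD4* and *SCD* lie lower at 6 h and highest at 48 h, *ACSS2* and *ME1* climb after 12 h, and *EBP* ends lowest.

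In the mevalonate group only *HMGCS1* of 6 genes rose at 48 h with all libraries, and 2 rose without 12 h replicate 1. The kinases *MVK* and *PMVK*, the decarboxylase *MVD* and the synthase *FDPS* had log2 fold changes between -0.22 and -0.01. *MVD* had 69.2 and 60.1 CPM at 48 h and 63.0 and 67.1 CPM at 0 h, and it was not called at any time with or without 12 h replicate 1. *IDI1*, the isopentenyl isomerase, had a log2 fold change of 0.29 (SE 0.13, edgeR adjusted p = 0.11) and was called higher without 12 h replicate 1 (adjusted p = 0.00409). The group's median was -0.07, the lowest of the 4 groups, beside 0.26 for squalene and ring synthesis, 0.49 for sensing and 0.42 for fatty acids. These medians were not tested against each other. *FDPS* shares 18.6% and *IDI1* 15.0% of its exonic bases with an antisense RNA, and *CYP51A1* shares 74.1% with other genes, so its 3.11 to 6.08 CPM are uncertain.

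More genes of the set were called between 6 h and 48 h of treatment than in any other comparison that was run. Comparing 48 h with 6 h, 17 of 32 genes were higher and 2 lower, against 16.2% and 17.0% of all genes. With that 12 h library left out these were 21 and 3, against 24.3% and 26.2%. Leaving out replicate 1 at 6 h or at 48 h left 11 called higher, against 8.62% and 9.35% of all genes. The 0 h libraries do not enter the difference itself, but they share in the filter, the scaling and the error. Without either of them the calls of *IDI1*, *SC5D* and *ELOVL5* were lost, while their log2 differences were 0.39, 0.35 and -0.35. The median log2 fold change was 0.45, beside 0.01 over all genes. The sterol ring group gave 6 higher and 1 lower of 11, the fatty acid group 6 and 1 of 11, the sensing group 3 of 4 and the mevalonate group 2 of 6. In the same order, without 12 h replicate 1, they gave 7 higher and 1 lower, 9 and 1, 3 and 0, and 2 and 1.

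*SCD* was 2.87-fold higher at 48 h than at 6 h (log2 1.52, SE 0.14, edgeR adjusted p = 3.51e-05). *MSMO1* was 2.56-fold higher (log2 1.36, SE 0.11) and *HMGCS1* 2.42-fold higher (log2 1.27, SE 0.11), both with an edgeR adjusted p of 2.45e-05. *SQLE* differed by 0.88 on the log2 scale (SE 0.14, adjusted p = 0.000922 by edgeR), where its difference from 0 h was 0.51. *ACACA*, not called against 0 h, had 59.2 and 50.1 CPM at 48 h and 28.5 and 31.9 CPM at 6 h, a log2 difference of 0.86 (SE 0.23, edgeR adjusted p = 0.0152). That call was lost without either 6 h library or 48 h replicate 1 (adjusted p 0.0623 to 0.108). *SREBF2* was higher by 0.51 (SE 0.14, edgeR adjusted p = 0.017), and lost the call without replicate 1 at 6 h or at 48 h (0.154 and 0.137). The pair called lower was *EBP* (-0.77) and *ELOVL5* (-0.35).

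**Figure D5:**
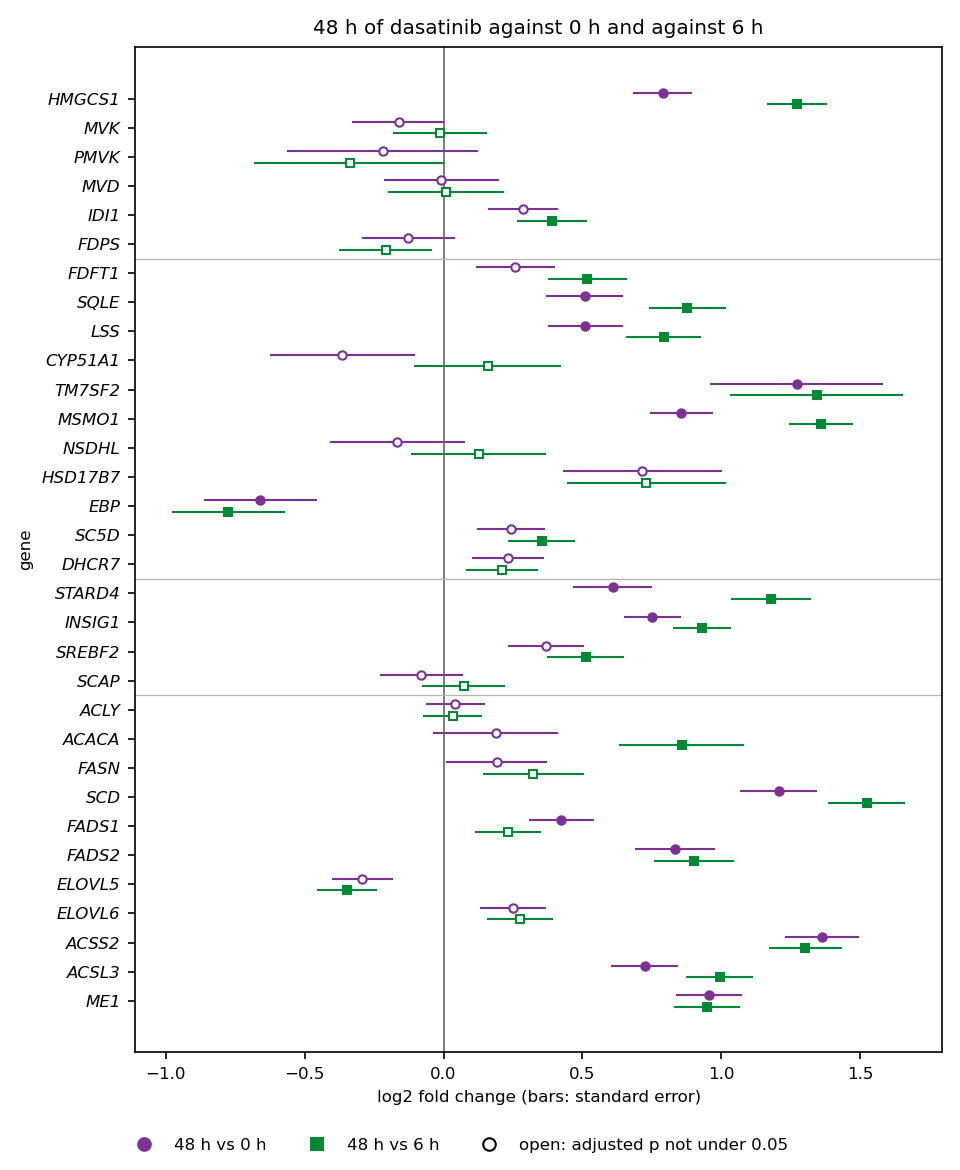
Log2 fold change (x axis) of each of the 32 genes (rows, by role) at 48 h against 0 h (circles) and 48 h against 6 h (squares), with standard errors as bars; open symbols did not reach an adjusted p under 0.05. The square lies to the right of the circle for *HMGCS1*, *MSMO1*, *SQLE*, *STARD4* and *ACACA*, and *EBP* lies left of 0 in both.

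The shorter steps gave fewer calls. Comparing 24 h with 6 h, 12 genes were higher and 1 lower, against 9.00% and 9.65% of all genes, and without 12 h replicate 1 these were 16 and 3, against 18.9% and 20.7%. Leaving out any one 6 h or 24 h library left 3 to 6 called higher, against 3.36% to 3.84% of all genes. Comparing 48 h with 24 h, *SCD* (log2 0.93, SE 0.14, edgeR adjusted p = 0.00779) and *FADS2* (0.65, SE 0.14, adjusted p = 0.0404) were the 2 called higher and 0 were lower, against 1.89% and 1.28% of all genes. DESeq2 called 7 higher, against 4.13% of all genes, and 0 lower. Once 12 h replicate 1 was left out, 17 were higher and 0 lower, against 10.1% and 11.3%. Both calls with all libraries were lost without any one 24 h or 48 h library, and that of *FADS2* also without any one 0 h or 6 h library.

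In TPM, which allows for gene length, the 32 genes spanned a wide range of levels. *SCD* was first at 0 h with a mean of 527 ± 15.4 TPM (SD, n = 2), followed by *FASN* at 310.5 ± 11.8, *ACLY* at 288 ± 18.0 and *MSMO1* at 184 ± 2.93, and *FASN* and *ACLY* were separated by little more than their spread. *CYP51A1* was last at 4.84 ± 1.55 TPM. At 48 h *SCD* stood at 1279 ± 5.40 TPM, while the next, *FASN*, stood at 372 ± 28.5. The summed TPM of the 11 fatty acid genes was 1604 ± 20.7 TPM at 0 h, 1459 ± 28.6 TPM at 6 h, 1673 ± 320.3 TPM at 12 h, 1809 ± 32.3 TPM at 24 h and 2672 ± 31.1 TPM at 48 h (SD, n = 2 each). *SCD* made up most of that gain. The summed TPM of the mevalonate and sterol ring genes was 995 ± 47.7 TPM at 0 h, 879 ± 5.30 TPM at 6 h, 904 ± 117 TPM at 12 h, 1186 ± 21.9 TPM at 24 h and 1317 ± 26.9 TPM at 48 h.

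Other genes of the same pathways were read from a list, chosen like the set with earlier results of these data known, at 48 h against 0 h. Of 15 other sterol synthesis and SREBP-linked genes, 4 rose and 3 fell with a median log2 fold change of 0.22, beside shares of 16.0% and 16.3% of all genes tested. Without 12 h replicate 1, 8 rose and 4 fell, against 24.5% and 26.0%. *MBTPS1*, the protease that makes the first cut in SREBPs, rose by 0.83 (SE 0.10, edgeR adjusted p = 0.000146), and so did *SREBF1*, which encodes SREBP-1 (SE 0.12, adjusted p = 0.000447). *TMEM97*, a sterol-responsive membrane protein, fell by 1.19 (SE 0.15, edgeR adjusted p = 0.00019), and *LBR*, the other sterol C14 reductase, fell by 0.81 (SE 0.12, adjusted p = 0.000559). *TM7SF2* and *LBR*, which carry the same enzymatic step, thus had log2 fold changes of 1.27 and -0.81 at 48 h.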

How the data were processed

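RNA from MDA-MB-231 cells was sequenced in 10 libraries, 2 replicates at each of 0, 6, 12, 24 and 48 h. Per the labels and the study's methods, the authors used FastQC and MultiQC for read quality, Trim Galore for adapters, STAR 2.5.2b for alignment (hg38) and featureCounts for gene counts, with annotation and strand setting not given in the sources used here. The authors deposited raw counts and TPM values for 36687 symbols, and groups and replicate numbers come from the labels. The dose of 100 nM is that of the study's text.

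The deposited counts were analysed with R 4.3.3 and edgeR 4.0.16. Genes passing filterByExpr (15727) were scaled by TMM and fitted with 1 mean per group by the robust quasi-likelihood method, and p-values were adjusted by Benjamini-Hochberg within a comparison at 0.05. The SE is the size of the log2 fold change divided by the square root of F. The study's methods name DESeq2, which was run as an alternative (version 1.42.0), as were no filter, size factors of the DESeq2 type, the 2 groups compared alone, a replicate block, limma 3.58.1 on log2(TPM + 1) and log2(TPM + 0.1) with at least 1 TPM in 2 libraries or no filter, and each library left out. Leaving a library out leaves its group 1 sample, assumed to vary like the others. Leaving out both 12 h libraries was added after the data were seen. The edgeR step was tested on simulated data.

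The 32 genes, their role groups and the other lists were chosen with earlier results of these data known. Values by library are given for genes called at 6 h, the 10 with the smallest p at 48 h against 0 h, and the 10 with the smallest p among those called for 48 h against 6 h; other genes are named to complete a group or after their values were seen. From the other lists up to 2 genes per direction are named, by smallest adjusted p at 48 h. Exonic lengths and overlaps come from GENCODE 44 and promoters from RefSeq. The depth of 40942913 to 49133774 counts per library limits the precision of low genes such as *CYP51A1*. The p-values set each difference against the spread between replicates, estimated over all 5 groups together with the 12 h pair included. The sample titles number the replicates and do not say whether they are separate cultures.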

Additional observations from a re-analysis of the deposited data

Results flagged for a closer look

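The RNA of 19 genes differed between cells treated for 48 h and for 6 h by edgeR's test, with 2 libraries a time and adjustment over all 15727 genes. The log2 differences, 48 h minus 6 h, were 1.52 for *SCD*, 1.36 for *MSMO1*, 1.34 for *TM7SF2*, 1.30 for *ACSS2*, 1.27 for *HMGCS1* and 1.18 for *STARD4*. Those of *ACSL3*, *ME1*, *INSIG1*, *FADS2*, *SQLE*, *ACACA* and *LSS* were 0.99, 0.95, 0.93, 0.90, 0.88, 0.86 and 0.79. Those of *FDFT1*, *SREBF2*, *IDI1* and *SC5D* were 0.52, 0.51, 0.39 and 0.35, and those of *ELOVL5* and *EBP* were -0.35 and -0.77. The adjusted p by edgeR lay between 2.45e-05 (*MSMO1* and *HMGCS1*) and 0.0478 (*SC5D*). The call of *SC5D* was lost in 11 of 19 alternatives (adjusted p up to 0.235), that of *ELOVL5* in 12 (up to 0.189) and that of *IDI1* in 8 (up to 0.298).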

How the results depend on the processing

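None of the 56 called fold changes of the set reversed under any of 19 alternatives. None was lost with size factors of the DESeq2 type, with DESeq2, with the 2 groups alone, or without 1 or both 12 h libraries, while 4 were lost with no filter, 5 with limma at either pseudocount, 8 with limma and no filter and 17 to 23 without any one other library. Deviations of same-numbered libraries correlated at -0.04 to 0.10 over 10 pairs of groups, with 1 over 0.1. These values show no pairing by replicate number, but over all genes they cannot exclude a shared culture or day. The replicate block lost 3 calls and left 0 genes lower at 6 h (1.36% of all genes).

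On the 2 groups alone, 9 genes were lower at 6 h (10.9% of all genes), 12 higher and 4 lower at 24 h (21.1% and 22.8%), and 21 higher and 2 lower at 48 h (26.8% and 28.2%). The same fit gave 3 lower for 24 h against 6 h (23.6%), and 18 higher and 1 lower for 48 h against 24 h (12.5% and 12.9%). Without both 12 h libraries, 10 were lower at 6 h (10.3%), 11 higher and 3 lower at 24 h (20.9% and 22.3%), and 20 higher and 2 lower at 48 h (26.4% and 27.9%), with 3 lower for 24 h against 6 h (22.1%) and 17 higher for 48 h against 24 h (10.8%). DESeq2 called 1 higher at 12 h (7.48%), 2 lower for 24 h against 6 h (11.8%) and 7 higher for 48 h against 24 h (4.13%). With no filter, 1 was lower for 48 h against 6 h (13.5%). Limma on TPM called 0 lower at 6 h (0.466% to 1.17% of all genes over its settings) and 0 lower for 24 h against 6 h (3.64% to 7%). It called 1 lower for 48 h against 6 h (8.16% to 15.5%) and 1 higher for 48 h against 24 h (0.662% to 1.51%). Without a filter it called 0 lower at 48 h (7.86%). Its median log2 fold changes with pseudocounts of 1 and 0.1 came to -0.0147 and -0.0154 at 12 h against 0 h. At 24 h they came to 0.208 and 0.211, at 48 h to 0.341 and 0.343, for 24 h against 6 h to 0.389 and 0.393, and for 48 h against 6 h to 0.531 and 0.535. Dropping the filter left those with a pseudocount of 1 as they were. The cause of these differences was not tested.

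With each library left out in turn, the genes lower at 6 h numbered 0 to 10 and the median was -0.174 to -0.0579. At 12 h 0 to 5 were higher and 0 to 12 lower, with medians of -0.12 to -0.09. At 24 h 1 to 11 were higher and 0 to 4 lower, with medians of 0.0584 to 0.17. At 48 h 8 to 20 were higher and 0 to 2 lower, with medians of 0.26 to 0.33. For 24 h against 6 h these were 3 to 16, 0 to 3 and 0.24 to 0.35, for 48 h against 6 h 11 to 21, 0 to 3 and 0.43 to 0.49, and for 48 h against 24 h 0 to 17 higher, 0 lower and medians of 0.22 to 0.30. The highest counts were those without a 12 h library. The share of all genes called was also larger in those fits, and smaller in the fits with the lowest counts. Shares for several of these fits are given with the comparisons above. These ranges therefore follow the number of genes called over the whole data and do not describe the set alone.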

Other observations

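Neighbouring pathways at 48 h against 0 h are given as values by edgeR with all libraries. Of 9 genes of the non-sterol branches of the mevalonate pathway, 1 rose and 2 fell (2 and 4 without 12 h replicate 1), with a median log2 fold change of -0.14. *GGPS1*, which makes geranylgeranyl diphosphate, rose by 1.12 (SE 0.16, edgeR adjusted p = 0.000465). *PDSS1* and *COQ2*, which serve ubiquinone synthesis, fell by 1.75 and 0.42 on the log2 scale (edgeR adjusted p = 2.53e-05 and 0.0495). Of 18 other genes of fatty acid synthesis, elongation and activation, 4 rose and 3 fell (4 and 5 without that library), with a median of -0.10. The acyl-CoA synthetases *ACSL1* and *ACSL5* rose by 1.32 and 0.77 (edgeR adjusted p = 0.000102 and 0.00042), and *MCAT*, of mitochondrial fatty acid synthesis, fell by 0.78 (adjusted p = 0.00546). *FADS3*, the desaturase next to *FADS1* and *FADS2*, fell by 0.54 (edgeR adjusted p = 0.0092).

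Of 10 genes linked to LXR, the receptor for oxysterols, 7 rose and 0 fell by edgeR with or without 12 h replicate 1, with a median of 0.90. *LRP1* and *ABCG1*, a lipoprotein receptor and a cholesterol exporter, had the smallest adjusted p. Of 11 genes of cholesterol esters and intracellular sterol transport, 3 rose and 2 fell (6 and 2 without that library), with a median of 0.23. *LIPA*, the lysosomal lipase that frees cholesterol from esters, rose by 0.59 and *GRAMD1B*, a sterol carrier, by 1.19 (edgeR adjusted p = 0.00182 and 0.0124), while *SOAT1*, which makes cholesterol esters, fell by 0.67 and *NCEH1*, which cleaves them, by 0.57 (adjusted p = 0.00441 and 0.0293). Of 15 genes of mitochondrial fatty acid oxidation, 3 rose and 1 fell (5 and 2 without it), with a median of 0.28. *CPT1A*, the carnitine palmitoyltransferase at its entry, rose by 0.58 and *ACADS* by 0.80 (edgeR adjusted p = 0.00483 and 0.00841), and *HADH* fell by 0.43 (adjusted p = 0.023). The shares of all genes tested that rose and fell in this comparison were 16.0% and 16.3%, and 24.5% and 26.0% without 12 h replicate 1.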
